A study of Arabidopsis thaliana with 10 samples.

Results

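The genes described here make and inactivate auxin in dark-grown Arabidopsis thaliana seedlings. They are 31 of the 33559 genes in the deposited table and were chosen by gene identifier from the TAA1/TAR, YUCCA, GH3, DAO, VAS1, amidohydrolase and auxin glucosyltransferase families. All 31 identifiers were found. Indole-3-acetic acid (IAA), the main auxin, is made from tryptophan in a short route. The aminotransferase TAA1 and its relatives TAR1 and TAR2 form indole-3-pyruvate, and the YUCCA flavin monooxygenases turn it into IAA. VAS1 draws indole-3-pyruvate back to tryptophan. IAA is inactivated by GH3 enzymes, which join it to amino acids, by DAO dioxygenases, which oxidise it, and by UGT enzymes, which attach glucose. Amidohydrolases of the ILR1 family release IAA from amino acid conjugates again. In dark-grown seedlings, an unequal distribution of auxin across the hypocotyl tip accompanies the apical hook, the bend that shields the shoot tip.

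The samples were 3-day-old seedlings collected without roots, grown at 22 °C in darkness after 3 days of cold and 3 to 6 h of light, all in the Col-0 background and without treatment. The 5 genotypes were Col-0 (wild type), hls1 (mutated in the hook regulator HOOKLESS1), pifq (mutated in the bHLH factors PIF1, PIF3, PIF4 and PIF5, which maintain growth in darkness), ein3 eil1 (mutated in both main ethylene response factors) and pifq ein3 eil1 (both sets together), named in the labels without allele numbers. Each had 2 biological replicates, 10 samples in all. The deposited table holds 1 RPKM value (a read count divided by gene length and library size) per gene and genotype, which was taken as the mean of both replicates. Replicate spread cannot be seen in such a table, no difference was tested, and the sequencing depth is unknown. In what follows, higher and lower calls mean a difference of at least 1 in log2(RPKM + 1), that is 2-fold in RPKM + 1, and all differences below are on that scale, which understates the change of genes at low levels. Genes that reached 1 RPKM in at least 1 genotype were compared, 18581 in all. Whole seedling tops were used, so fewer cells of a type and less RNA per cell cannot be told apart.

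As checks of the labels, EIN3 had an RPKM of 84.0 in Col-0 and of 13.3 to 17.9 in both genotypes mutated in it, and EIL1 of 44.4 and of 10.7 to 10.8. PIF3 reached 35.1 in Col-0 and 2.35 to 5.61 in both genotypes mutated in it, but it was called lower as well in ein3 eil1, at 12.7, where PIF3 is intact by the labels. HLS1 had 11.2 RPKM in Col-0 and 6.28 in hls1, a difference of -0.74 under the threshold, with 7.16 in pifq and lower values in ein3 eil1, 2.84, and pifq ein3 eil1, 3.04, both called. The hls1 column was therefore not the lowest for its own gene, and the HLS1 transcript does not check that label. In pifq PIF5 was called lower, at 1.60 RPKM against 4.34 in Col-0, whereas PIF1 and PIF4 were not, at 18.2 and 8.69 against 19.0 and 4.36. In pifq ein3 eil1 PIF1 and PIF5 were not called, at 11.8 and 2.31 RPKM, and PIF4 was called higher, at 11.6. PIF4 and PIF5 were also called higher in hls1, at 9.81 and 16.0 RPKM, where they are intact by the labels. The dark-grown shoot marker PORA had 2089 RPKM in Col-0, 44.5 in hls1, 1411 in ein3 eil1, 213 in pifq ein3 eil1 and 403 in pifq, and PORB 1481, 145, 1091, 459 and 829. Both were lowest in hls1, with differences from Col-0 of -5.52 and -3.34. The sum of 16 root markers was 211 RPKM in Col-0, 244 in hls1, 245 in ein3 eil1, 75.9 in pifq ein3 eil1 and 44.8 in pifq, although roots were not collected. Of these, 5 stayed under 1 RPKM in every genotype, among them the root meristem genes PLT1 and PLT2 at 0.0453 and 0.0395 at most. Taking all 18581 genes together, the median difference from Col-0 was -0.29 in ein3 eil1, -0.17 in pifq ein3 eil1, -0.05 in pifq and 0.04 in hls1, and differences relative to it are given where it matters.

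Of the 31 genes, 24 passed the filter. TAR1, YUC10, YUC11, GH3.4 and UGT84B1 are listed at 0 in every genotype, as are 10105 genes of the table, and YUC1 and YUC5 stayed at or under 0.272 and 0.638 RPKM. A further 6 genes, YUC2, YUC4, YUC7, YUC9, GH3.1 and GH3.9, passed the filter in some genotypes and were under 1 RPKM in others, so that their passing is tied to the genotypes in which they are high and the counts below are descriptions. In Col-0 the order of levels, which RPKM scales to gene length, ran from GH3.5 at 51.3 RPKM, UGT74D1 at 45.0, VAS1 at 36.6 and TAA1 at 36.5 to GH3.3 at 25.6, IAR3 at 24.7, GH3.17 at 18.4, GH3.6 at 17.2, YUC8 at 13.6 and DAO2 at 10.95. Whether neighbours in this order differ cannot be said without replicate values. Within the families, the highest levels in Col-0 were those of TAA1 for the first step and of YUC8 and YUC3 for the second. For conjugation they were those of GH3.5, GH3.3, GH3.17 and GH3.6. YUC3, at 6.50 RPKM, was no higher than TAR2 of the first step, at 6.58.

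**Figure D1:**
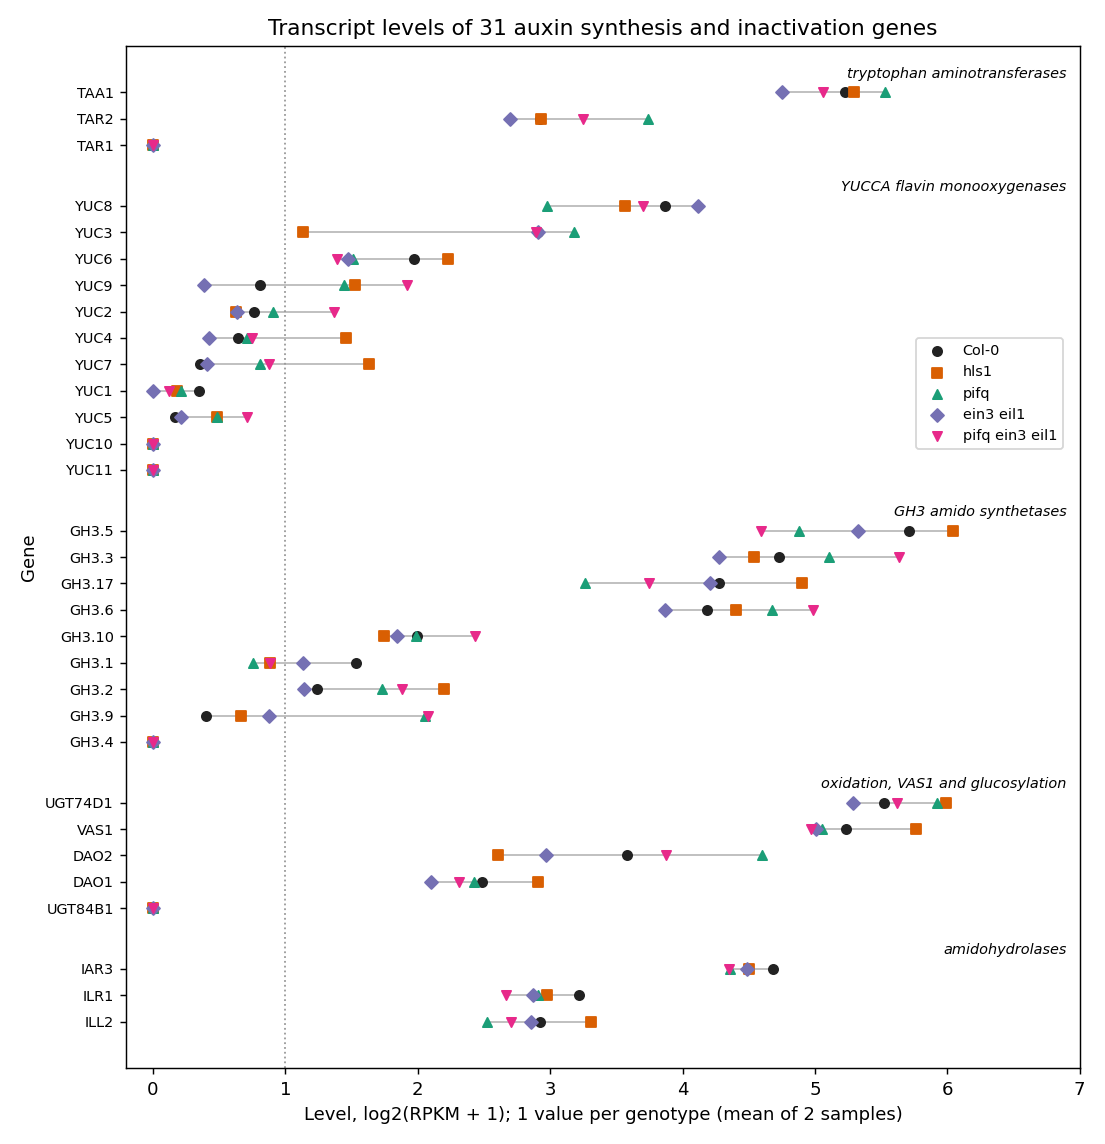
Level of each of the 31 genes as log2(RPKM + 1), with 1 symbol per genotype for the mean of 2 samples, a grey line from the lowest to the highest genotype and a dotted line at the filter of 1 RPKM. YUC3 has its lowest value in hls1, whereas YUC7 and YUC4 have their highest there. GH3.9 stands higher in pifq and pifq ein3 eil1 than in the other genotypes. Symbols at nearly the same value cover each other.

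No gene of the first step was called. TAA1 (AT1G70560, TAIR10.1 chromosome 1, 26604855 to 26607652, 5 exons) had an RPKM of 36.5 in Col-0, 38.3 in hls1, 25.9 in ein3 eil1, 32.4 in pifq ein3 eil1 and 45.2 in pifq. Its highest value was 1.75 times its lowest. TAR2 stood at 6.58, 6.61, 5.47, 8.51 and 12.4 RPKM in the same order, with differences of 0.82 in pifq and 0.55 in pifq ein3 eil1 against ein3 eil1, both under the threshold. Summed over TAA1 and TAR2, the first step amounted to 43.1 RPKM in Col-0, 31.4 in ein3 eil1, 40.9 in pifq ein3 eil1 and 57.6 in pifq. TAA1 is also known as WEI8, a gene found through ethylene responses of roots. In ein3 eil1 its difference from Col-0 was -0.48, which is -0.19 relative to the median of all genes.

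In RPKM as deposited, the YUCCA genes had totals of 21.3 to 26.6, while their make-up differed between genotypes. Their 11 values summed to 25.7 RPKM in Col-0, 22.5 in hls1, 26.3 in ein3 eil1, 26.6 in pifq ein3 eil1 and 21.3 in pifq. These sums are not adjusted for the level of the whole column, and their closeness depends on that. The median-of-ratios factors ran from 0.861 in ein3 eil1 to 1.118 in hls1, with 1.083 in Col-0. YUC8 made up 52.9% of the Col-0 sum and YUC3 25.3%. In hls1 YUC3 made up 5.3%, in pifq YUC8 made up 32.3% and YUC3 37.8%, and in ein3 eil1 YUC8 reached 62.0%.

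**Figure D2:**
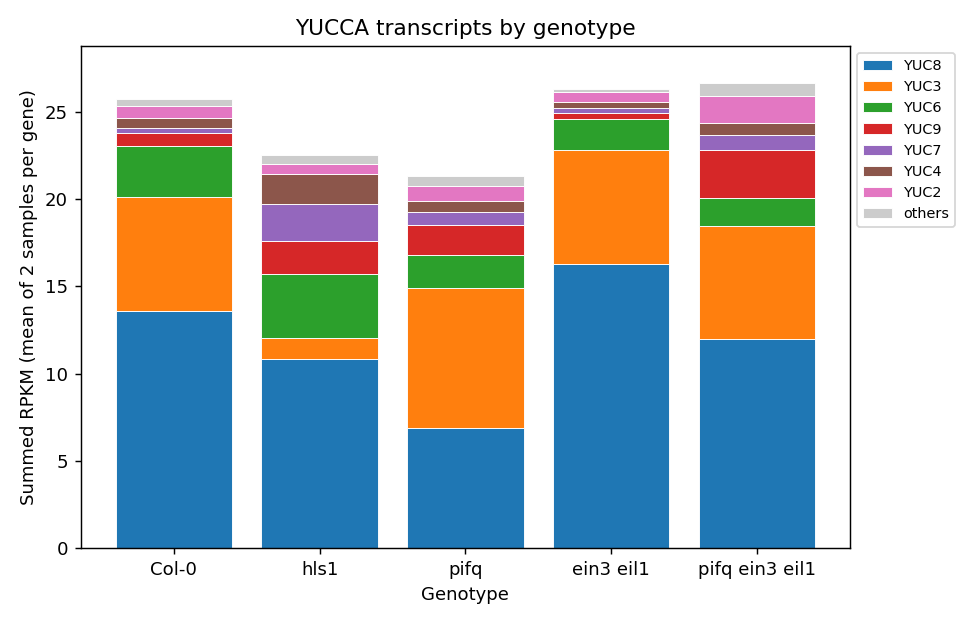
Summed RPKM of the YUCCA genes in each genotype, stacked by gene, with the mean of 2 samples per gene and YUC1, YUC5, YUC10 and YUC11 as others. The totals lie between 21.3 and 26.6 RPKM, while the YUC3 share is 5.3% in hls1 and the YUC8 share 32.3% in pifq.

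In hls1, 2 of the 24 genes were called, both in this family, 1 lower and 1 higher. Over all genes 4.00% were called lower and 3.40% higher, so the count is near the background. The markers PORA and PORB were also far lower in hls1 than in Col-0, and their part in the hls1 values was not tested. YUC3 (AT1G04610, chromosome 1, 1279351 to 1281618) had an RPKM of 6.50 in Col-0, 1.19 in hls1, 6.51 in ein3 eil1, 6.43 in pifq ein3 eil1 and 8.05 in pifq. The other 4 genotypes thus lay between 6.43 and 8.05 RPKM, and hls1 differed from Col-0 by -1.77. YUC7 (AT2G33230, chromosome 2, 14080319 to 14081971), its closest relative in sequence, had an RPKM of 0.278 in Col-0, 2.10 in hls1, 0.330 in ein3 eil1, 0.832 in pifq ein3 eil1 and 0.751 in pifq, and was called higher in hls1 with 1.28. YUC7 passed the filter through hls1 alone, so only a difference of some size could bring it into the comparison, and a protein-coding gene on the opposite strand overlaps it. YUC4 stood at 0.561 RPKM in Col-0 and 1.75 in hls1, and YUC9 at 0.750 and 1.88, with differences of 0.81 and 0.72 under the threshold. Together YUC4, YUC7 and YUC9, grouped after their values were seen, summed to 1.59 RPKM in Col-0 and 5.73 in hls1. The transcripts of YUC3 and YUC7 are 79.7% identical over 1238 aligned bases, and the sources used here do not say how shared reads were counted.

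YUC8 and YUC9 differed with loss of the PIFs in opposite directions. YUC8 (AT4G28720, chromosome 4, 14192569 to 14194302, 1 exon), a gene known as a PIF target in warmth and shade, had an RPKM of 13.6 in Col-0, 10.8 in hls1, 16.3 in ein3 eil1, 12.0 in pifq ein3 eil1 and 6.87 in pifq. Its difference from Col-0 in pifq was -0.89, just under the threshold, and pifq held the lowest of the 5 values. YUC9 (AT1G04180, chromosome 1, 1104493 to 1106241) had an RPKM of 0.750 in Col-0, 1.88 in hls1, 0.309 in ein3 eil1, 2.77 in pifq ein3 eil1 and 1.72 in pifq. It was called higher in pifq ein3 eil1 against Col-0, with 1.11, and against ein3 eil1, with 1.53. In pifq its difference from Col-0 was 0.63, under the threshold. All its values are low, and those in Col-0 and ein3 eil1 lie under 1 RPKM. YUC6 ranged from 1.62 RPKM in pifq ein3 eil1 to 3.69 in hls1 and YUC2 from 0.545 in hls1 to 1.58 in pifq ein3 eil1, without a call.

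The promoters of YUC8, the most strongly expressed YUCCA gene in Col-0, and YUC9, the YUCCA gene called in pifq ein3 eil1, are shown. Each holds a PBE-box, a sequence to which PIFs bind, which was also a reason for the choice. The windows are the 250 bases before the annotated gene start in RefSeq TAIR10.1, 5′ to 3′ on the coding strand, at chr4:14192319-14192568 on the plus strand and chr1:1104243-1104492 on the plus strand. Capitals mark the box, CATGTG or CACATG on the other strand, whose first base lies 53 bases before the start in YUC8 and 65 in YUC9.
YUC8: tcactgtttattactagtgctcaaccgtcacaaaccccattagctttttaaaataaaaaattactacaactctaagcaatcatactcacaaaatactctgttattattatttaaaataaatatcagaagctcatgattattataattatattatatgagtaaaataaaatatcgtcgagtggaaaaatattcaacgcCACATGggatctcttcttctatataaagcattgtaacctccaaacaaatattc
YUC9: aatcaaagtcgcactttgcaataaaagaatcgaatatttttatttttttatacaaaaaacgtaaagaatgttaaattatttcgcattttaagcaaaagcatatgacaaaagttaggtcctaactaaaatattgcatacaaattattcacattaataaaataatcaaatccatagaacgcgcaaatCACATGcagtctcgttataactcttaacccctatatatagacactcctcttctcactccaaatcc
The box occurred in 6 of the 31 promoters (19.4%) and in 11.1% of 27443 promoters of protein-coding genes. The G-box CACGTG, the other PIF-bound sequence searched, occurred in 2 of 31 (6.5%) against 6.49%. A match is a stretch of letters and was not tested for binding.

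The GH3 genes differed in both directions between Col-0 and the genotypes without the PIFs. Their sum was 119 RPKM in Col-0, 144 in hls1, 94.5 in ein3 eil1, 126 in pifq ein3 eil1 and 104 in pifq. GH3.5, GH3.6, GH3.3 and GH3.17 all encode enzymes that conjugate IAA to amino acids. GH3.5 made up 43.1% of the sum in Col-0 and 18.3% in pifq ein3 eil1, where GH3.3 was highest with 38.6%.

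**Figure D3:**
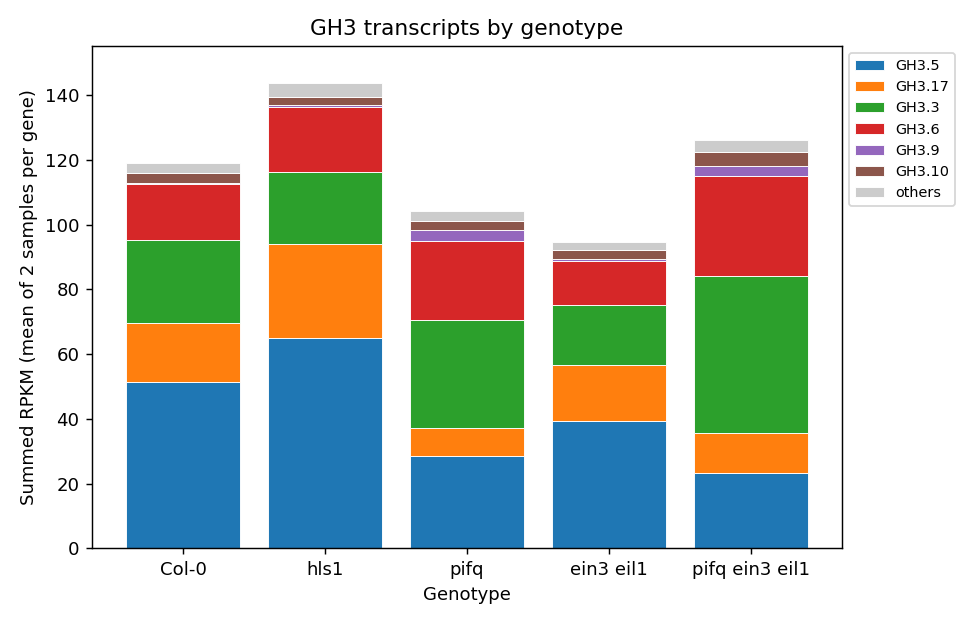
Summed RPKM of the GH3 genes in each genotype, stacked by gene, with the mean of 2 samples per gene and GH3.1, GH3.2 and GH3.4 as others. GH3.5 and GH3.17 are smaller in pifq and pifq ein3 eil1 than in Col-0, and GH3.3 and GH3.6 are larger.

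GH3.5 (AT4G27260, also WES1, chromosome 4, 13653579 to 13656285) had an RPKM of 51.3 in Col-0, 64.9 in hls1, 39.2 in ein3 eil1, 23.1 in pifq ein3 eil1 and 28.5 in pifq. It was called lower in pifq ein3 eil1 against Col-0, with -1.12, and its difference in pifq was -0.83. The call did not hold after median-of-ratios scaling, with -0.94, or quantile normalization, with -0.90. GH3.17 (AT1G28130, chromosome 1, 9825169 to 9828118), whose product conjugates IAA to glutamate, had an RPKM of 18.4 in Col-0, 28.9 in hls1, 17.5 in ein3 eil1, 12.4 in pifq ein3 eil1 and 8.62 in pifq. Its call in pifq, at -1.01, lay at the threshold and was -0.95 and -0.90 under the same alternatives. Both genes were highest in hls1, with differences of 0.33 and 0.63. The summed root markers were also lower in pifq and pifq ein3 eil1. Of 11 kept markers, 8 were called lower and none higher in pifq, and 5 lower and 2 higher (PRP3 and MRN1) in pifq ein3 eil1, where 6.22% and 6.04% of all genes were called lower. The markers' part in the GH3.5 and GH3.17 values was not tested.

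GH3.3 and GH3.6 went the other way. GH3.3 (AT2G23170, chromosome 2, 9863855 to 9866562) had an RPKM of 25.6 in Col-0, 22.3 in hls1, 18.3 in ein3 eil1, 48.7 in pifq ein3 eil1 and 33.4 in pifq. GH3.6 (AT5G54510, also DFL1, chromosome 5, 22130964 to 22133688) stood at 17.2, 20.2, 13.6, 30.6 and 24.5 RPKM in the same order. Each had its lowest RPKM in ein3 eil1 and its highest in pifq ein3 eil1. In ein3 eil1 their differences from Col-0 were -0.46 and -0.32, which are -0.17 and -0.03 relative to the median of all genes. Their low values there are thus largely those of the whole column. Both were called higher in pifq ein3 eil1 against ein3 eil1, with 1.36 and 1.11, the latter 0.98 after median-of-ratios scaling. Against Col-0 the differences in pifq ein3 eil1 were 0.90 and 0.80, under the threshold. After median-of-ratios scaling the GH3.3 difference was 1.09, and after quantile normalization GH3.3 and GH3.6 stood at 1.11 and 1.01, past it. The GH3.5 and GH3.6 transcripts are 83.7% identical over 1894 bases, and those of GH3.3 and GH3.2 79.9% over 1816.

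GH3.9 (AT2G47750, chromosome 2, 19560127 to 19563960) had the largest ratio between genotypes, 9.99, of the genes above 0 in all of them. It had an RPKM of 0.323 in Col-0, 0.588 in hls1, 0.833 in ein3 eil1, 3.23 in pifq ein3 eil1 and 3.15 in pifq. The genotypes without the PIFs lay at 3.15 and 3.23 RPKM and those with them at 0.833 or less. GH3.9 was called higher in pifq, with 1.65, in pifq ein3 eil1 against Col-0, with 1.68, and against ein3 eil1, with 1.20. All 5 values are low, it passed the filter through pifq and pifq ein3 eil1, and an annotated lncRNA gene lies on the opposite strand within its bounds. The sources used here do not say whether counting used strand.

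The remaining GH3 genes were at 4.41 RPKM or less. GH3.2 had an RPKM of 1.36 in Col-0, 3.59 in hls1, 1.21 in ein3 eil1, 2.69 in pifq ein3 eil1 and 2.32 in pifq, with 0.96 in hls1. GH3.2 and GH3.4 are 90.0% identical over 1812 bases, and GH3.4 is listed at 0. GH3.1 was highest in Col-0, at 1.90 RPKM, and lowest in pifq, at 0.688. GH3.10, also DFL2, ranged from 2.34 RPKM in hls1 to 4.41 in pifq ein3 eil1.

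The promoters of GH3.3 and GH3.5 are shown because these genes were called in opposite directions in pifq ein3 eil1, lower against Col-0 for GH3.5 and higher against ein3 eil1 for GH3.3, and both hold TGTCTC, the classical auxin response element through which many GH3 genes respond to auxin. Windows, build and orientation are as for the YUCCA genes, at chr2:9866563-9866812 on the minus strand and chr4:13653329-13653578 on the plus strand. Capitals mark TGTCTC, which starts 116 bases before the gene in GH3.3 and 47 in GH3.5, and in GH3.3 also a PBE-box, written CACATG, at 172 bases.
GH3.3: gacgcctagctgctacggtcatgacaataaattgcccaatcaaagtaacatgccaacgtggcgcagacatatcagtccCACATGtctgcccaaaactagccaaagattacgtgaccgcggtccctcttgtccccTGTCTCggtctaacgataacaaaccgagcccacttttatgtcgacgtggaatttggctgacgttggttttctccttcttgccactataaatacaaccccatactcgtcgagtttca
GH3.5: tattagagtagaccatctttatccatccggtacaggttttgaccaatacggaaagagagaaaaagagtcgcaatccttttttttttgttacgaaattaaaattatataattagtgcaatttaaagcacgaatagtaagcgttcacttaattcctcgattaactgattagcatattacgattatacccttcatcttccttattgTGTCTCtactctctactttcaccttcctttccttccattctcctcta
TGTCTC, or GAGACA on the other strand, occurred in 5 of the 31 promoters (16.1%) and in 10.9% of all 27443. The other auxin response element searched, TGTCGG, or CCGACA on the other strand, occurred in none of the 31 windows and in 4.16% of all.

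Among the oxidising and glucosylating enzymes, DAO2 (AT1G14120, chromosome 1, 4833396 to 4835089) varied most. It had an RPKM of 10.95 in Col-0, 5.08 in hls1, 6.81 in ein3 eil1, 13.7 in pifq ein3 eil1 and 23.3 in pifq. It was called higher in pifq, with 1.02, and its difference in hls1 was -0.98, just inside and just outside the threshold. DAO1 (AT1G14130), the neighbouring gene on the same strand and the better known IAA oxidase, stood at 4.59, 6.52, 3.28, 3.96 and 4.36 RPKM in the same order and was called nowhere. In hls1 the pair differed in opposite directions, -0.98 for DAO2 and 0.43 for DAO1. Their transcripts are 83.1% identical over 923 bases. UGT74D1, which glucosylates IAA, ranged from 38.0 RPKM in ein3 eil1 to 62.5 in hls1, and VAS1 from 30.3 in pifq ein3 eil1 to 53.4 in hls1. Neither was called.

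The promoter of DAO2 is shown because it was the gene called higher in pifq that holds a G-box. It lies at chr1:4835090-4835339 on the minus strand, in the same build and orientation. Capitals mark a form of the EIN3 site, ATGTANC or GNTACAT on the other strand with N for any base, at 162 bases before the gene start, and the G-box, CACGTG, at 106.
DAO2: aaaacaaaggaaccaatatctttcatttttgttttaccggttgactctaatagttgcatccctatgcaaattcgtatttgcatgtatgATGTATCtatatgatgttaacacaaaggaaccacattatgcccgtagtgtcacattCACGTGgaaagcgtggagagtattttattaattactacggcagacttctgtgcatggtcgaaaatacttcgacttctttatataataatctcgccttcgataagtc
This form of the EIN3 site occurred in 3 of the 31 windows (9.7%) and in 10.7% of all. The windows of YUC3, YUC7, GH3.6, GH3.9 and GH3.17 held none of the 5 sequences searched, which says nothing of other stretches or of the factors.

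The amidohydrolases release IAA from conjugates. IAR3 had an RPKM of 24.7 in Col-0, 21.6 in hls1, 21.5 in ein3 eil1, 19.4 in pifq ein3 eil1 and 19.5 in pifq, a ratio of 1.27 between its extremes and the smallest among the 24 genes. ILR1 ranged from 5.34 RPKM in pifq ein3 eil1 to 8.30 in Col-0 and ILL2 from 4.75 in pifq to 8.90 in hls1. No amidohydrolase was called in any comparison. ILL2 shares 90.6% of 940 aligned bases with its tandem neighbour ILL1 and overlaps genes on the opposite strand, so its reads are uncertain.

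**Figure D4:**
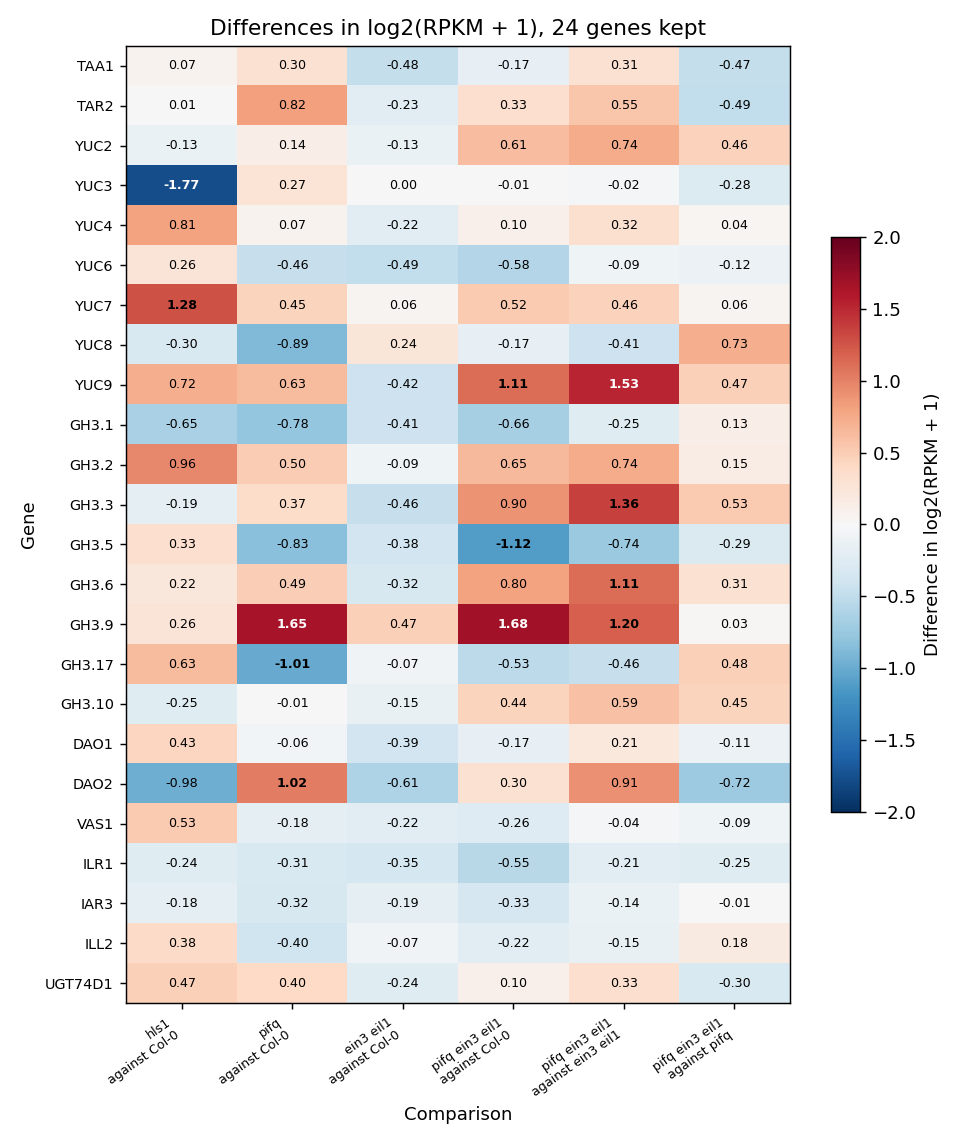
Differences in log2(RPKM + 1) for the 24 genes kept, in 6 comparisons of genotypes named along the horizontal axis, with red for higher and blue for lower and called differences in bold. The ein3 eil1 against Col-0 and pifq ein3 eil1 against pifq columns hold no bold value, and YUC3 in hls1 holds the most negative one, -1.77.

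Loss of the 4 PIFs was compared in plants with and without EIN3 and EIL1, and these comparisons share no column of the table. In pifq against Col-0, GH3.9 and DAO2 were called higher and GH3.17 lower, 2 and 1 of 24, where 3.39% of all genes were called higher and 6.22% lower. In pifq ein3 eil1 against ein3 eil1, YUC9, GH3.3, GH3.6 and GH3.9 were called higher and none lower, where 4.04% of all genes were called higher and 3.99% lower. In both, 21 of the 24 genes differed in the same direction, 12 higher and 9 lower, which is 87.5% against 70.1% of all 18581 genes. The exceptions were YUC3, GH3.10 and DAO1. Among the 18 genes at 1 RPKM or more in every genotype, 15 did, 7 higher and 8 lower, which is 83.3% against 70.0% of all such genes. After median-of-ratios scaling 22 of 24 did, against 73.8% of all genes, and after quantile normalization 23 of 24, against 73.6%. The largest differences kept their signs: GH3.9 had 1.65 and 1.20, DAO2 had 1.02 and 0.91, TAR2 had 0.82 and 0.55, GH3.5 had -0.83 and -0.74, YUC8 had -0.89 and -0.41, and GH3.17 had -1.01 and -0.46. YUC9 had 0.63 and 1.53, GH3.3 had 0.37 and 1.36 and GH3.6 had 0.49 and 1.11. The interaction of both losses was 0.89 for YUC9, 0.99 for GH3.3 and 0.63 for GH3.6. No gene of the 24 was called for the interaction, with 4.85% of all genes called in either direction. The median interaction of all genes was 0.18. With pseudocounts of 0.5 and 0.1, GH3.3 reached 1.01 and 1.02 and YUC9 reached 1.19 and 1.72. After median-of-ratios scaling GH3.3 stood at 0.79 and YUC9 at 0.88, and after quantile normalization at 0.78 and 0.88, all under the threshold. The marker PORA was also called lower in pifq against Col-0, with -2.37. In pifq ein3 eil1 against ein3 eil1 PORA and PORB were both called lower, with -2.72 and -1.25. Of the 11 kept root markers, 8 were called lower and 0 higher in pifq against Col-0. In pifq ein3 eil1 against ein3 eil1, 6 were called lower and 1 higher. The part of these markers in the values of the 24 genes was not tested.

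**Figure D5:**
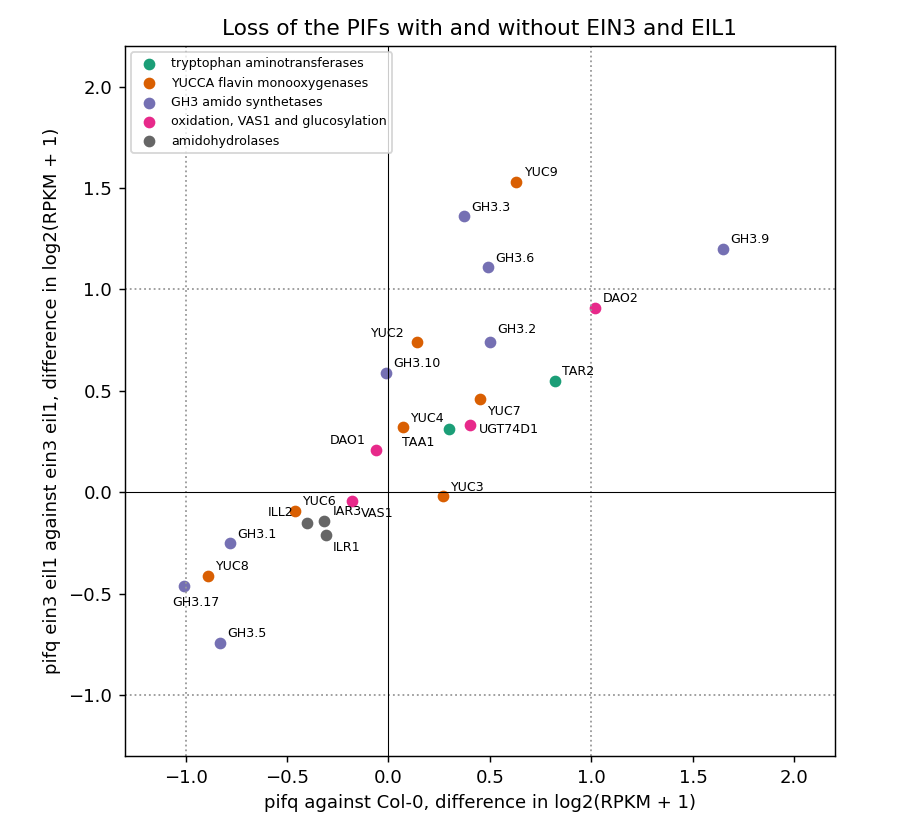
Difference in log2(RPKM + 1) without the PIFs in plants with EIN3 and EIL1 (horizontal axis) and without them (vertical axis), 1 point per gene for the 24 genes kept and dotted lines at the threshold. GH3.9, DAO2 and TAR2 lie high on both axes, and GH3.5, GH3.17 and YUC8 low on both.

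Loss of EIN3 and EIL1 gave no call among the 24 genes, in plants with or without the PIFs. Over all genes, 4.14% were called in ein3 eil1 against Col-0 and 2.88% in pifq ein3 eil1 against pifq. In ein3 eil1 the differences ran from -0.61 for DAO2 to 0.47 for GH3.9, and 14 of 24 genes lay above the median of all genes, -0.29, and 10 below it. In pifq ein3 eil1 against pifq they ran from -0.72 for DAO2 to 0.73 for YUC8, around a median of -0.11 for all genes. DAO2 thus had the lowest value of the 24 in both comparisons, and YUC8 had 0.24 and 0.73. The 24 genes had the same direction in both in 13 cases, 54.2% against 67.3% of all genes, or in 15 after median-of-ratios scaling, 62.5% against 60.6%. Of the 12508 genes that make up the 67.3%, 10658 were lower in both. Among genes at 1 RPKM or more in every genotype the share was 61.1% against 68.8%, and 72.2% against 61.2% after that scaling. In pifq ein3 eil1 against Col-0, YUC9 and GH3.9 were called higher and GH3.5 lower, where 3.81% of all genes were called higher and 6.04% lower.

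The steps around these genes were examined with lists of other genes. None of 10 tryptophan synthesis genes was called in any comparison. In pifq 9 of the 10 lay above 0, with a median of 0.41 beside -0.05 for all genes, and TSB1, a tryptophan synthase beta subunit, stood at 121 RPKM against 60.1 in Col-0, a difference of 0.99. In pifq ein3 eil1 against ein3 eil1 all 10 lay above 0, with a median of 0.23 beside 0.13 for all genes. In pifq ein3 eil1 against pifq 8 of the 10 lay below 0, with a median of -0.17 beside -0.11. In hls1 6 of the 10 lay below 0, with a median of -0.04 beside 0.04 for all genes. In ein3 eil1 6 of the 10 also did, but their median of -0.03 was above that of all genes, -0.29. The anthranilate synthase genes ASA1 and ASB1, known from ethylene responses of roots, stood at 8.49 and 13.2 RPKM in Col-0 and 9.05 and 13.1 in ein3 eil1. Of 7 genes of the acetaldoxime branch and nitrilases, 6 passed the filter, all but NIT4. In hls1, 2 of the 6 were called higher and 1 lower, where 3.40% and 4.00% of all genes were and where PORA and PORB were low, and in the other comparisons none was called. The nitrilase gene NIT1 stood at 773 RPKM in Col-0 and 2049 in hls1, NIT2 at 2.18 and 12.8, and the amidase gene AMI1 at 36.3 and 13.8. NIT1 and NIT2 are tandem copies, so the division of their reads is uncertain. The 4 genes that convert indole-3-butyric acid to IAA had no call. Of 8 further genes of conjugate hydrolysis, methylation and glucosylation, 6 passed the filter, and only MES17 and UGT74E2 were called. MES17, a methylesterase acting on methyl-IAA, had an RPKM of 0.773 in Col-0, 1.32 in hls1, 1.42 in ein3 eil1, 6.49 in pifq ein3 eil1 and 7.23 in pifq. It was called higher in the same 3 comparisons as GH3.9, with 2.21 for pifq and 2.08 for pifq ein3 eil1 against Col-0 and 1.63 for the latter against ein3 eil1. Over all genes 3.39%, 3.81% and 4.04% were called higher in these comparisons. UGT74E2, whose product glucosylates indole-3-butyric acid, was called lower in hls1 and pifq, at 7.07 and 9.88 RPKM against 22.5. In these comparisons 4.00% and 6.22% of all genes were called lower. Its interaction of 1.39 was called higher, where 4.85% of all genes were called in either direction.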

How the data were processed

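Libraries of polyadenylated RNA were directional and read as 150 nt pairs. Build TAIR10 and aligner BWA 0.7.7 appear in the submitters' processing notes, while a counting tool, strand setting or set of gene lengths is not given in the sources used here. Per the file headers, the deposited values are RPKM in 5 columns, 1 per genotype. Of the non-zero values, 51.0% to 51.8% have 7 or more digits, of which 95.2% to 96.0% end in 5, as a mean of 2 rounded numbers does, and each value was treated as such a mean. The limma test planned for values per sample could not be run, and the effect-size rule planned beside it was used: a difference of 1 in log2(RPKM + 1) among genes at 1 RPKM or more in at least 1 genotype. Description columns were not used, since several did not match the gene of their line. All 31 genes are named. Of the other lists, called genes were named, up to 4 per list and comparison, and TSB1, ASA1 and ASB1 were added after their values were seen. The genes and lists were chosen with earlier results of these data known. Gene bounds, symbols and promoters came from RefSeq TAIR10.1, in which all 31 identifiers were found; DAO1 and DAO2 are named for their family. Transcript identity is the best blastn alignment (BLAST+ 2.17.0, e-value 1e-10) of the longest transcripts to another gene. Other values were computed with pandas 2.3.3 and numpy 2.4.6.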

Additional observations from a re-analysis of the deposited data

How the results depend on the processing

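No paired analysis was possible because the deposited table holds 1 value per genotype, and for the same reason no replicate was left out in turn. The other 7 alternatives were run, and no called difference of a single gene reversed. Little follows from this, since pseudocounts, filters and the threshold cannot change the sign of a difference between genotypes. The median-of-ratios factors, 0.861 to 1.118, were also too close together to reverse a call. With a pseudocount of 0.1 in place of 1, which raises low genes, the genes called higher and lower numbered 4 and 3 in hls1, 4 and 2 in pifq, 1 and 1 in ein3 eil1 (GH3.9 and YUC9), 4 and 2 in pifq ein3 eil1, 3 and 1 for the interaction, and 7 higher in pifq ein3 eil1 against ein3 eil1. With 0.5 they numbered 3 and 2 in hls1, with 2 lower in pifq and 2 higher for the interaction. With a minimum of 5 RPKM, 0 were higher in hls1, 1 in pifq (DAO2), 0 in pifq ein3 eil1 against Col-0 and 2 against ein3 eil1 (GH3.3 and GH3.6), since YUC7, YUC9 and GH3.9 drop out. Median-of-ratios scaling gave 2 lower in hls1 (YUC3 and DAO2) and 0 lower in pifq and in pifq ein3 eil1 against Col-0. Quantile normalization also gave 0 lower in these 2 comparisons, and 4 higher in pifq ein3 eil1 against Col-0. At a difference of 2 or more, 0 genes were called in any comparison. Without the filter the counts were those given. For differences between genotypes this was fixed in advance, since genes under 1 RPKM throughout cannot differ by 1 on this scale. The spread between replicates, and with it the error of every value, could not be estimated.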
